A study of Mus musculus with 16 samples.

Results

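The canonical NF-κB subunits and inhibitors are described here across 4 genotypes of mouse liver. The rule names 10 genes and takes, for each, the probe set that carries that symbol alone and has the highest mean over all arrays. It found 9 genes of the 18820 measured, each with 1 probe set: the subunit genes Rela and Rel, the inhibitor genes Nfkbia, Nfkbib and Nfkbie, the nuclear inhibitor-like genes Nfkbiz and Bcl3, and the feedback genes Tnfaip3 and Tnip1. Nfkb1, the other gene of the rule, was not analysed here. RNA of whole livers was hybridised to 16 Affymetrix whole-transcript arrays, 1 per male mouse of 7 days, with 4 mice in each genotype. Mice of the label TRAF2/Casp-8/IKKbetaLPC-KO (called IKKβ triple KO below) lack Traf2, Caspase-8 and Ikkβ in liver parenchymal cells. Mice of the label TRAF2/Casp-8LPC-KO/RIPK3-/- (RIPK3 triple KO) lack Traf2 and Caspase-8 in the same cells and Ripk3 in every cell of the body. Mice of the label TRAF2/Casp-8LPC-KO (TRAF2/Casp-8 KO) lack Traf2 and Caspase-8 alone, so all 3 knockout genotypes share that pair of deletions. WT mice were littermates that carry floxed alleles without Cre. Conditional alleles were deleted by alfp-Cre, which is driven by albumin and α-fetoprotein regulatory elements. Kupffer cells, endothelium, stellate cells and blood cells of the liver therefore keep the conditional alleles, and all mice were on a mixed C57/BL6 and SV129Ola background. The comparisons ask how these genes differ once TRAF2 and caspase-8 are lost, and which differences remain when RIPK3 or IKKβ is lost as well.

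NF-κB is a family of dimeric transcription factors that inhibitor (IκB) proteins hold in the cytoplasm. In the canonical pathway, TNF, interleukin-1 or Toll-like receptors activate an IKK complex in which IKKβ phosphorylates the IκB proteins, these are degraded, and dimers that contain p65 (Rela) or c-Rel (Rel) enter the nucleus. Several of the genes switched on there encode inhibitors of the pathway itself, among them IκBα (Nfkbia), IκBε (Nfkbie), A20 (Tnfaip3) and ABIN-1 (Tnip1). In liver the pathway protects hepatocytes from TNF-induced death and drives inflammatory gene expression.

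All values are log2 signals that the authors made with RMA. Array medians lay between 4.90 and 5.05, and with 4 arrays a genotype the precision is limited by their number. Casp8 averaged 8.88 in IKKβ triple KO, 8.69 in RIPK3 triple KO and 8.95 in TRAF2/Casp-8 KO, against 9.87 in WT. Ripk3 averaged 4.21 in RIPK3 triple KO, against 5.84 in TRAF2/Casp-8 KO and 5.93 in WT, and Ikbkb averaged 7.19 in IKKβ triple KO, against 7.88 in TRAF2/Casp-8 KO and 7.64 in WT. Traf2 went against the labels: its mean was 6.89 in IKKβ triple KO, 7.32 in RIPK3 triple KO and 7.30 in TRAF2/Casp-8 KO, against 6.28 in WT, so the knockout names below are those of the labels throughout. Which exons the Traf2 probe set covers is not given in the sources used here. WT replicate 1 stood apart from the 15 other arrays on the second principal component (−50.50, against −22.31 for the next lowest array) and had the lowest array weight, 0.461. Its mean of 12 macrophage and Kupffer cell markers was 9.42, against 8.44 to 8.49 in the other WT livers, and its mean of 12 neutrophil and myeloid precursor markers was 9.49, against 7.89 to 8.33. The differences of the members from WT without it are given together after the values of the single genes. By a reading of plate positions from the array names, IKKβ triple KO and WT arrays stood in column 5 and RIPK3 triple KO and TRAF2/Casp-8 KO arrays in column 7, and WT and RIPK3 triple KO arrays stood in other rows than the remaining genotypes. Row and column together separate all 4 genotypes, so plate position and genotype cannot be told apart. Nfkbie, described below, divides along the columns. It averaged 5.48 in WT and 6.12 in IKKβ triple KO, against 7.88 in RIPK3 triple KO and 7.97 in TRAF2/Casp-8 KO. Over all probe sets, 7 passed limma's test between the genotypes of column 5 and 94 between those of column 7. Comparisons across the columns gave 223 to 845.

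The members that rose in knockout livers were inhibitor, inhibitor-like and feedback genes, and the subunit genes Rela and Rel were not among them. Nfkb1 was not analysed, and Nfkb2 and Relb, which also encode subunits but are not members, rose as described below. Against WT, 4 of 9 members rose in livers labelled TRAF2/Casp-8 KO and 0 fell, where 2.17% of all genes were called higher and 1.14% lower. In livers labelled RIPK3 triple KO, 5 of 9 rose and 0 fell, against 1.94% and 1.16% of all genes. In livers labelled IKKβ triple KO, 0 of 9 passed limma's adjusted p of 0.05, where 0.0266% of all genes were called higher and 0.0106% lower, and 5 members had an unadjusted p below 0.05. The median difference of the 9 members from WT was 0.31 in IKKβ triple KO, 0.82 in RIPK3 triple KO and 0.74 in TRAF2/Casp-8 KO on the log2 scale, beside −0.01 for all genes in each. These comparisons share the 4 WT livers. Without WT replicate 1, the counts of members that rose were 1 in IKKβ triple KO, 6 in RIPK3 triple KO and 5 in TRAF2/Casp-8 KO. The count in RIPK3 triple KO was 3 without its replicate 3 and 2 without its replicate 4 or without WT replicate 2, 3 or 4, with Nfkbie and Tnfaip3 passing each time.

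**Figure D1:**
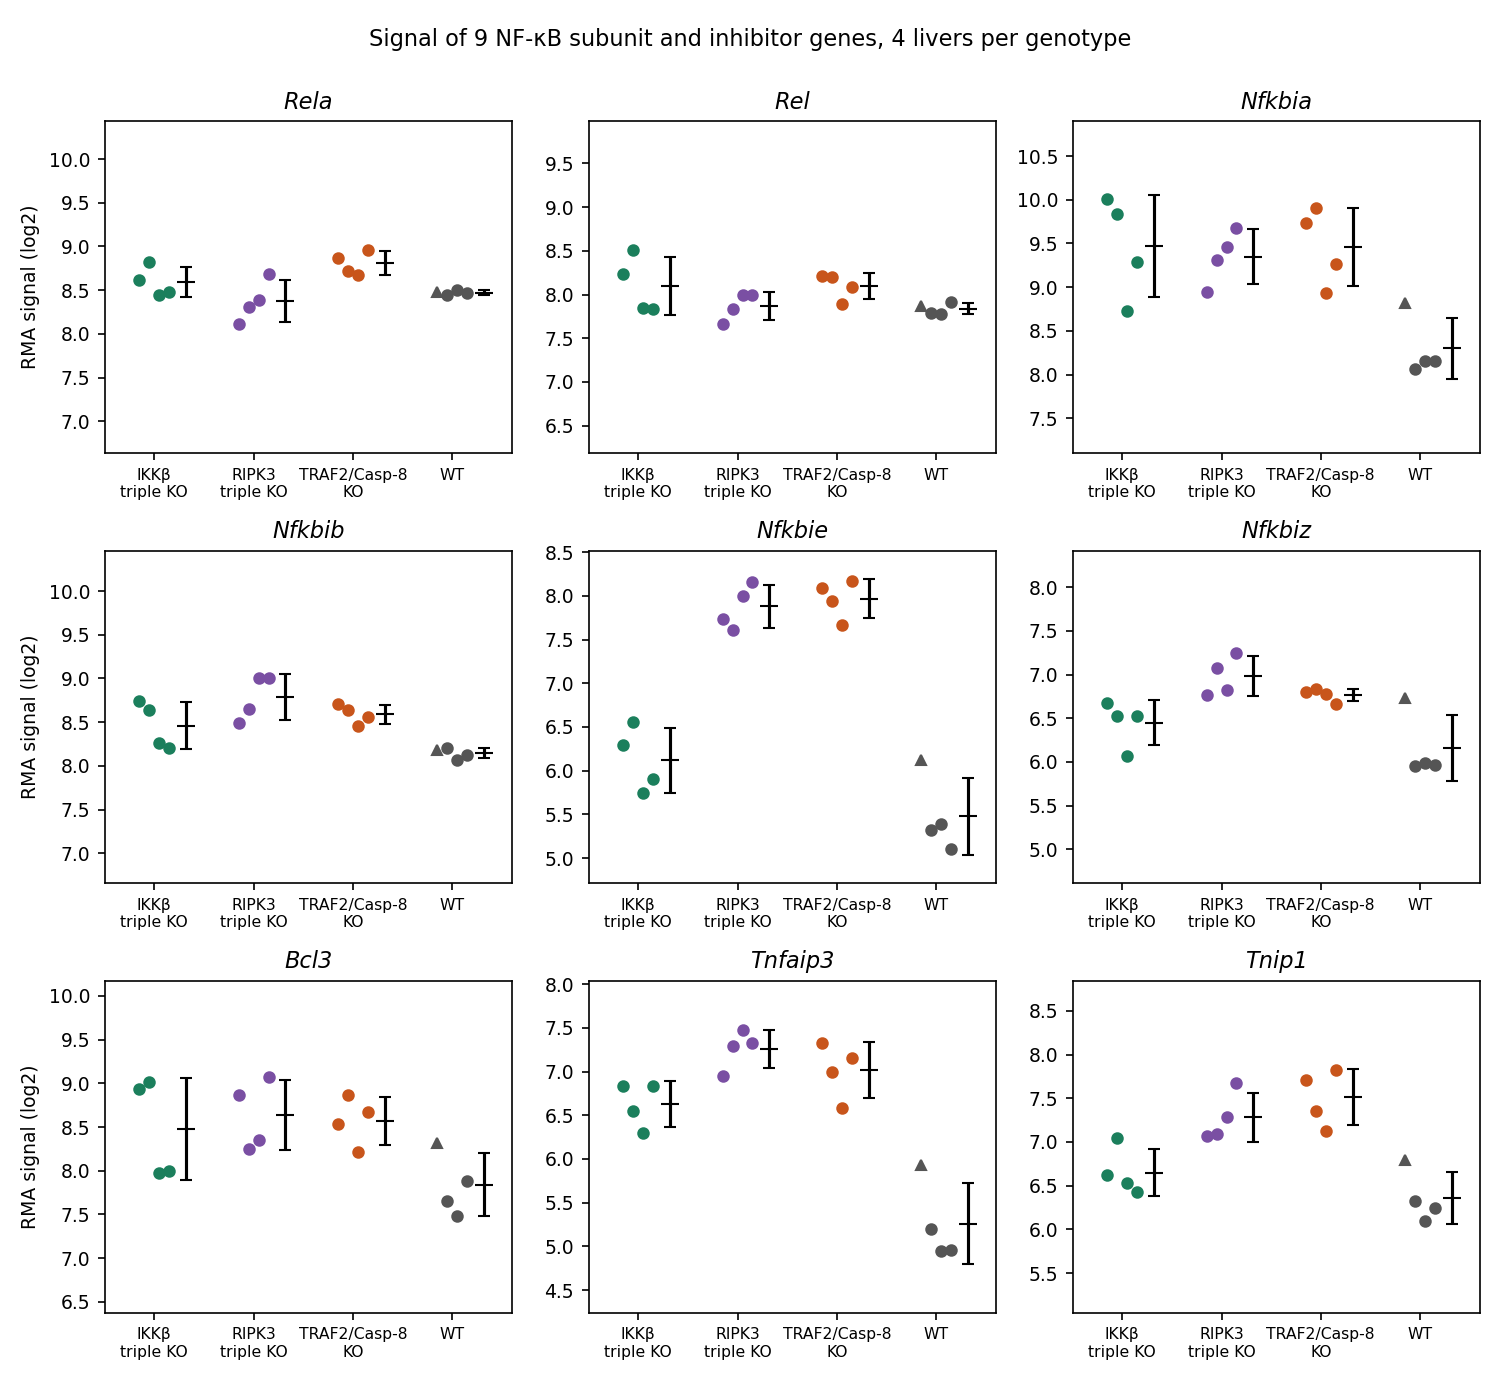
RMA signal (log2, vertical axis, each panel spanning the same range) of the 9 genes in IKKβ triple KO, RIPK3 triple KO, TRAF2/Casp-8 KO and WT livers. Points are single livers in the order of replicates 1 to 4, WT replicate 1 is a triangle, and bars give the mean and SD of 4 livers. Nfkbie averages 6.12 in IKKβ triple KO, above the 5.48 of WT and below the 7.88 and 7.97 of RIPK3 triple KO and TRAF2/Casp-8 KO.

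Promoters of the 4 genes that rose in livers labelled TRAF2/Casp-8 KO are shown because they passed in the same comparison and because the pathway is known to act through κB sites. Each runs from 250 bases before to 50 bases after the start site annotated by RefSeq (GRCm38.p6), 5′ to 3′ on the strand of the gene. Capitals mark matches to any of 3 κB-type motifs of 10 bases, searched on both strands. They read GGG, 2 free bases and TTTCC; GGG, 2 free bases and TTCCC; and GGG, 3 free bases and TTCC, and the first is a special case of the third.
Nfkbie (chr17:45555450-45555749, plus strand): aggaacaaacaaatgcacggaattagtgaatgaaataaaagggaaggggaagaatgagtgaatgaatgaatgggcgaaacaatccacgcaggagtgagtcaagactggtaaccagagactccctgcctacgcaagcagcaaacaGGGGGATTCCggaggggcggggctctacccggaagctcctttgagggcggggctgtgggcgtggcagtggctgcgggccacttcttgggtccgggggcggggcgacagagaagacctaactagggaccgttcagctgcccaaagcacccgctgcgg
Tnfaip3 (chr10:19015361-19015660, minus strand): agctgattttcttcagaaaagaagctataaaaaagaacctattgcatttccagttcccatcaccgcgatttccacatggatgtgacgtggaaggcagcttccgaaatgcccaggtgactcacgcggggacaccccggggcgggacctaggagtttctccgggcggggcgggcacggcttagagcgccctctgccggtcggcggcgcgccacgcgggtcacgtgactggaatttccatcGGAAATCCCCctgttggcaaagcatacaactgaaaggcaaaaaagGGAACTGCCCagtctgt
Tnip1 (chr11:54962891-54963190, minus strand): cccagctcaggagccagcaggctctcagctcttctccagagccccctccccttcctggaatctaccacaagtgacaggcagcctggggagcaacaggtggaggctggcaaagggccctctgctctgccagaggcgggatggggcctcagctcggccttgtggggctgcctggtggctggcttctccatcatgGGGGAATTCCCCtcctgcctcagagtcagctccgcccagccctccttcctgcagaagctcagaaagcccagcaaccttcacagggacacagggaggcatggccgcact
Nfkbia (chr12:55492598-55492897, minus strand): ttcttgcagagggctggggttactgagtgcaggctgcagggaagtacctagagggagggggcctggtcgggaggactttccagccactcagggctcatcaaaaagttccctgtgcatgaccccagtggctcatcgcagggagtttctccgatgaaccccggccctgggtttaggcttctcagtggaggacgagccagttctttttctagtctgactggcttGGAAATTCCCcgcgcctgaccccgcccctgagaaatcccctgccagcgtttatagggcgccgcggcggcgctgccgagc

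The Nfkbie promoter held 1 match, GGGGGATTCC, on the strand of the gene, at −106 to −97 from the start site. The Nfkbia promoter held GGGAATTTCC on the opposite strand, between −29 and −20. In Tnip1 the matches overlapped in 1 stretch around the palindrome GGGAATTCCC at −57 to −48. Tnfaip3 has 2 annotated starts in the table, and both promoters held a match, the first at −12 to −3 and 33 to 42. Of the 9 promoters in the table, which are those of all members but Nfkbiz, 7 held a match, against 6.8% of all 32851 promoters. These promoters belong to 6 of 8 genes, and no share by gene was taken over all genes. The members were picked as genes of the NF-κB pathway, several of which it is known to switch on. Rel and Bcl3, which passed in no comparison, held matches as well. Rela and Nfkbib held none in this window, and Nfkbib rose in RIPK3 triple KO over WT. The single motifs occurred in 1.63%, 1.75% and 5.56% of all promoters, in the order given above. A match is a sequence description and says nothing on whether a factor binds there.

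**Figure D2:**
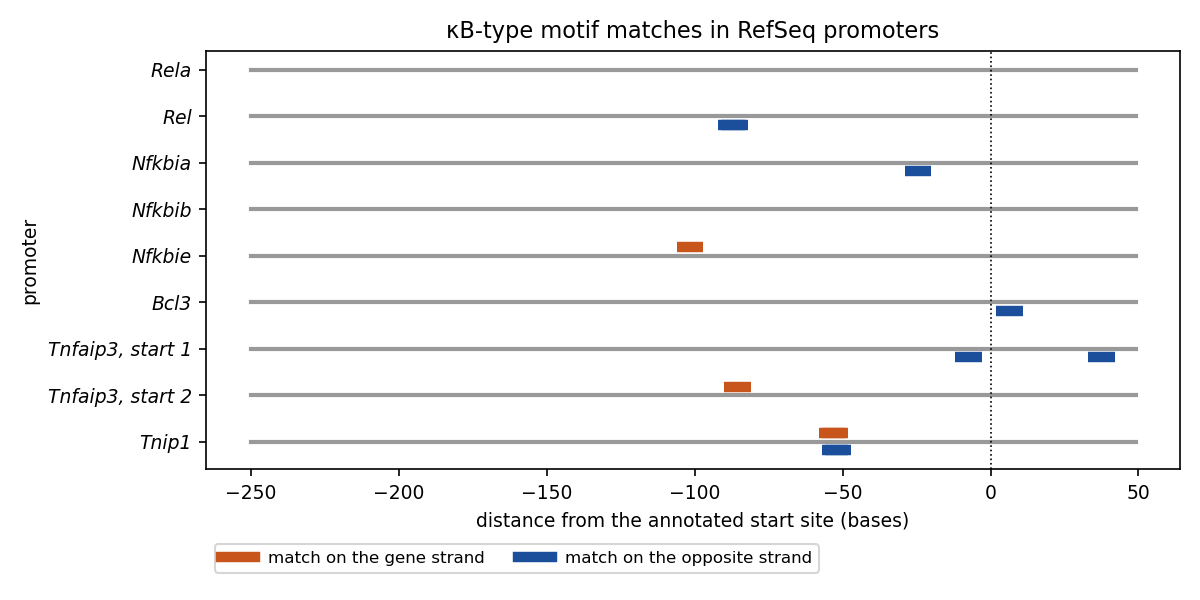
Positions of κB-type motif matches in the 9 RefSeq promoters of member genes (horizontal axis, bases from the annotated start site at 0; each grey line is 1 promoter). Orange bars above a line are matches on the strand of the gene and blue bars below it matches on the opposite strand. The lines of Rela and Nfkbib carry no bar.

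Neither of the subunit genes Rela and Rel passed limma's test in any of the 6 comparisons. Rela, which encodes the transactivating subunit p65, read 8.62, 8.82, 8.44 and 8.48 in IKKβ triple KO, 8.11, 8.31, 8.39 and 8.69 in RIPK3 triple KO, 8.87, 8.72, 8.67 and 8.96 in TRAF2/Casp-8 KO and 8.48, 8.44, 8.50 and 8.47 in WT. The TRAF2/Casp-8 KO livers all lay above the WT livers, by 0.33 ± 0.12 (log2 difference and SE, n = 4 livers per genotype, limma adjusted p = 0.19). The RIPK3 triple KO livers overlapped both, and their difference from TRAF2/Casp-8 KO was −0.43 ± 0.12 (limma adjusted p = 0.199). Rel, which encodes c-Rel, a subunit best known in lymphoid and myeloid cells, read 8.23, 8.51, 7.85 and 7.83 in IKKβ triple KO, 7.66, 7.83, 8.00 and 8.00 in RIPK3 triple KO, 8.21, 8.20, 7.89 and 8.09 in TRAF2/Casp-8 KO and 7.87, 7.79, 7.78 and 7.91 in WT. All genotypes overlapped WT for Rel, with differences of 0.27, 0.03 and 0.26 in the same order (adjusted p = 0.81, 0.949 and 0.444). The order of mean Rela levels was TRAF2/Casp-8 KO, IKKβ triple KO, WT and RIPK3 triple KO, and no neighbours in that order passed the test. Over the 6 comparisons of both genes, the 95% intervals of the log2 differences ran no further than −0.68 and 0.58.

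Each of the 3 IκB genes rose over WT in at least 1 knockout genotype, but of these calls only those of Nfkbie held with each array left out. Nfkbie also fell in IKKβ triple KO against both other knockouts. Nfkbie, which encodes IκBε, read 6.29, 6.56, 5.75 and 5.90 in IKKβ triple KO, 7.73, 7.61, 8.00 and 8.16 in RIPK3 triple KO, 8.09, 7.94, 7.67 and 8.17 in TRAF2/Casp-8 KO and 6.12, 5.32, 5.39 and 5.10 in WT. All RIPK3 triple KO and TRAF2/Casp-8 KO livers lay above all IKKβ triple KO and WT livers, while IKKβ triple KO and WT overlapped through WT replicate 1. Nfkbie rose by 2.40 ± 0.22 in RIPK3 triple KO over WT (limma adjusted p = 1.86e-05) and by 2.49 ± 0.22 in TRAF2/Casp-8 KO over WT (adjusted p = 1.8e-05). It fell in IKKβ triple KO against TRAF2/Casp-8 KO (−1.84 ± 0.22, 3.59-fold lower, adjusted p = 0.000841) and against RIPK3 triple KO (−1.75 ± 0.22, adjusted p = 0.00082). The remaining difference of IKKβ triple KO from WT was 0.64 ± 0.22 (adjusted p = 0.672), and 0.85 without WT replicate 1 (adjusted p = 0.212). The means ran in the order TRAF2/Casp-8 KO (7.97), RIPK3 triple KO (7.88), IKKβ triple KO (6.12) and WT (5.48), and among neighbours only RIPK3 triple KO and IKKβ triple KO differed beyond their spread.

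Nfkbia, which encodes IκBα, the inhibitor that is resynthesised fastest after activation of the pathway, read 10.01, 9.84, 8.73 and 9.29 in IKKβ triple KO, 8.95, 9.31, 9.46 and 9.68 in RIPK3 triple KO, 9.73, 9.91, 8.93 and 9.26 in TRAF2/Casp-8 KO and 8.82, 8.06, 8.16 and 8.15 in WT. The 3 knockout genotypes overlapped one another throughout, and WT replicate 1 alone reached into the range of IKKβ triple KO. Nfkbia rose by 1.16 ± 0.28 in TRAF2/Casp-8 KO over WT (2.23-fold, limma adjusted p = 0.0457). The differences from WT were 1.17 ± 0.28 in IKKβ triple KO (adjusted p = 0.354) and 1.05 ± 0.28 in RIPK3 triple KO (adjusted p = 0.0687). Over all probe sets, 7 passed between IKKβ triple KO and WT, 845 between RIPK3 triple KO and WT and 800 between TRAF2/Casp-8 KO and WT, and the adjusted p of similar differences varied with these counts. The call in TRAF2/Casp-8 KO was lost without TRAF2/Casp-8 KO replicate 1, 2 or 4 or WT replicate 2, 3 or 4 (adjusted p up to 0.139), and with the 2 genotypes alone (0.067), and without WT replicate 1 RIPK3 triple KO passed as well (1.23, adjusted p = 0.0349). Between IKKβ triple KO and TRAF2/Casp-8 KO, Nfkbia differed by 0.01, with a 95% interval of −0.59 to 0.61.

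Nfkbib, which encodes IκBβ, an inhibitor with a slower turnover, read 8.74, 8.64, 8.26 and 8.20 in IKKβ triple KO, 8.49, 8.65, 9.0 and 9.0 in RIPK3 triple KO, 8.71, 8.64, 8.46 and 8.56 in TRAF2/Casp-8 KO and 8.18, 8.21, 8.07 and 8.13 in WT. RIPK3 triple KO and TRAF2/Casp-8 KO livers all lay above WT. Nfkbib rose by 0.64 ± 0.14 in RIPK3 triple KO over WT (limma adjusted p = 0.0231). That call was lost with the replicate number as a block (adjusted p = 0.0524), with the 2 genotypes alone (0.0686), and without RIPK3 triple KO replicate 3 or 4 or WT replicate 2, 3 or 4 (up to 0.0785). The difference was 0.31 ± 0.14 in IKKβ triple KO (adjusted p = 0.77) and 0.44 ± 0.14 in TRAF2/Casp-8 KO (adjusted p = 0.119).

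Of the nuclear members of the IκB family, Nfkbiz passed in 1 comparison and Bcl3 in none. Nfkbiz, which encodes IκBζ, a co-activator of secondary NF-κB targets, read 6.67, 6.52, 6.07 and 6.53 in IKKβ triple KO, 6.77, 7.08, 6.82 and 7.25 in RIPK3 triple KO, 6.80, 6.83, 6.78 and 6.66 in TRAF2/Casp-8 KO and 6.73, 5.95, 5.99 and 5.96 in WT. It rose by 0.82 ± 0.17 in RIPK3 triple KO over WT (limma adjusted p = 0.0224), and the difference was 0.61 ± 0.17 in TRAF2/Casp-8 KO (adjusted p = 0.0907) and 0.29 ± 0.17 in IKKβ triple KO (adjusted p = 0.855). Without WT replicate 1 the TRAF2/Casp-8 KO difference was 0.80 and passed (adjusted p = 0.0064). Leaving out replicate 2 or 4 of RIPK3 triple KO, or replicate 2, 3 or 4 of WT, ended the call in RIPK3 triple KO (adjusted p up to 0.0763), and with the 2 genotypes alone (0.115).

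Bcl3, a nuclear partner of p50 and p52 dimers, read 8.94, 9.02, 7.97 and 8.00 in IKKβ triple KO, 8.87, 8.25, 8.35 and 9.07 in RIPK3 triple KO, 8.54, 8.87, 8.21 and 8.67 in TRAF2/Casp-8 KO and 8.32, 7.65, 7.48 and 7.88 in WT. Its livers within a genotype differed widely: the SD was 0.58 in IKKβ triple KO, 0.40 in RIPK3 triple KO, 0.27 in TRAF2/Casp-8 KO and 0.36 in WT. The differences from WT were 0.65, 0.80 and 0.74 (SE 0.27 each) and did not pass (limma adjusted p = 0.767, 0.166 and 0.213). In IKKβ triple KO, replicates 1 and 2 were the higher pair of livers for Bcl3, Rela, Rel, Nfkbia, Nfkbib, Nfkbie and Tnip1, but not for Nfkbiz or Tnfaip3.

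The feedback genes Tnfaip3 and Tnip1 both rose over WT in RIPK3 triple KO and in TRAF2/Casp-8 KO, and neither passed over WT in IKKβ triple KO. Tnfaip3, whose product A20 edits ubiquitin chains and stops signalling to IKK, read 6.83, 6.55, 6.30 and 6.83 in IKKβ triple KO, 6.95, 7.29, 7.48 and 7.33 in RIPK3 triple KO, 7.33, 7.00, 6.58 and 7.16 in TRAF2/Casp-8 KO and 5.93, 5.20, 4.95 and 4.96 in WT. Every knockout liver lay above every WT liver. Tnfaip3 rose by 2.00 ± 0.22 in RIPK3 triple KO (4.01-fold, limma adjusted p = 0.000109) and by 1.76 ± 0.22 in TRAF2/Casp-8 KO over WT (3.38-fold, adjusted p = 0.000365). In IKKβ triple KO the difference from WT was 1.37 ± 0.22 (2.58-fold, adjusted p = 0.0546), and it passed without WT replicate 1 (1.59, adjusted p = 0.00599), with an intensity trend (adjusted p = 0.047) and with 3 other settings. From TRAF2/Casp-8 KO the IKKβ triple KO livers differed by −0.39 ± 0.22, with overlap (adjusted p = 0.65).

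Tnip1, whose product ABIN-1 binds ubiquitin chains and A20, read 6.62, 7.04, 6.53 and 6.43 in IKKβ triple KO, 7.07, 7.09, 7.29 and 7.68 in RIPK3 triple KO, 7.71, 7.35, 7.13 and 7.82 in TRAF2/Casp-8 KO and 6.79, 6.32, 6.09 and 6.24 in WT. The IKKβ triple KO livers overlapped WT and lay below all RIPK3 triple KO and TRAF2/Casp-8 KO livers. Tnip1 rose by 0.92 ± 0.19 in RIPK3 triple KO (limma adjusted p = 0.0223) and by 1.15 ± 0.19 in TRAF2/Casp-8 KO over WT (adjusted p = 0.00455), against a difference of 0.29 ± 0.19 in IKKβ triple KO (adjusted p = 0.872). The call in RIPK3 triple KO ended when replicate 3 or 4 of RIPK3 triple KO, or replicate 2, 3 or 4 of WT, was left out (adjusted p up to 0.0781), and with the 2 genotypes alone (0.0659). Between IKKβ triple KO and TRAF2/Casp-8 KO the difference was −0.85 ± 0.19 (1.81-fold lower, adjusted p = 0.0654), which passed without IKKβ triple KO replicate 2 (−0.98, adjusted p = 0.0412) and under 3 other settings.

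Without WT replicate 1, Nfkbie was above WT by 0.85 in IKKβ triple KO, 2.61 in RIPK3 triple KO and 2.70 in TRAF2/Casp-8 KO. In the same order of genotypes, Tnfaip3 was above WT by 1.59, 2.23 and 1.98, Tnip1 by 0.44, 1.06 and 1.29, and Nfkbia by 1.35, 1.23 and 1.34. Nfkbib differed by 0.32, 0.65 and 0.45, Nfkbiz by 0.48, 1.01 and 0.80, and Bcl3 by 0.81, 0.96 and 0.90. Rela differed by 0.12, −0.09 and 0.34 and Rel by 0.28, 0.05 and 0.27. No call of the 16-array model was lost, and those gained were Tnfaip3 in IKKβ triple KO, Nfkbia in RIPK3 triple KO and Nfkbiz in TRAF2/Casp-8 KO.

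**Figure D3:**
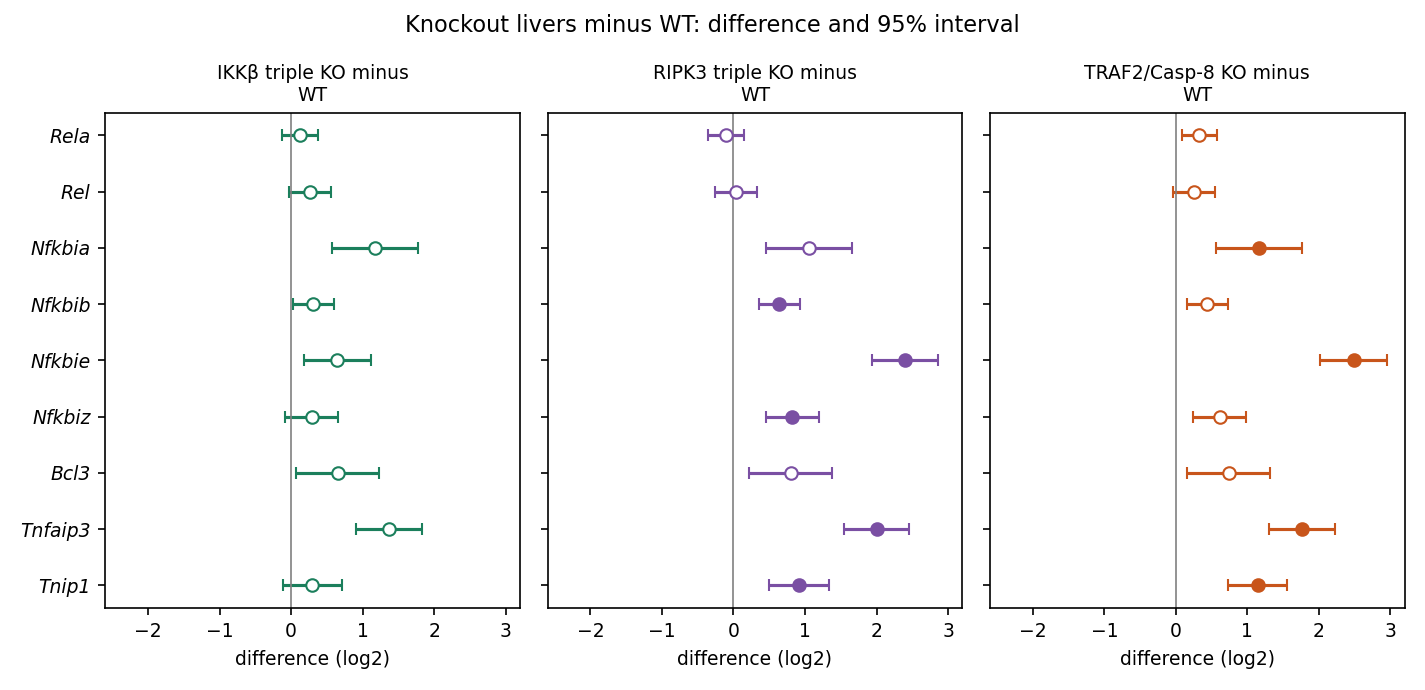
Difference from WT (log2, horizontal axis) of the 9 genes (rows) in IKKβ triple KO, RIPK3 triple KO and TRAF2/Casp-8 KO livers, with 95% intervals from the limma model. Filled points passed an adjusted p of 0.05. No point is filled in IKKβ triple KO, 5 are in RIPK3 triple KO and 4 in TRAF2/Casp-8 KO, and Nfkbia sits at 1.17, 1.05 and 1.16 in the same order.

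In 6 of 9 members the groups did not overlap between TRAF2/Casp-8 KO and WT, against 11.6% of all genes, and likewise in 6 of 9 between RIPK3 triple KO and WT, against 9.08%. Between IKKβ triple KO and WT this held for 1 of 9, Tnfaip3, against 3.92% of all genes. Fewer cells of a type and less RNA per cell cannot be told apart in whole liver.

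Between knockout genotypes, Nfkbie was the member that passed, in both comparisons of IKKβ triple KO. In IKKβ triple KO against TRAF2/Casp-8 KO, 1 of 9 members fell, Nfkbie, and 0 rose, where 0.903% of all genes were called lower and 0.117% higher. In RIPK3 triple KO against TRAF2/Casp-8 KO, 0 of 9 passed limma's test, where 0.149% of all genes were called lower and 0.181% higher, and 1 member, Rela, had an unadjusted p below 0.05 (−0.43, 95% interval −0.68 to −0.18). Of the 9 differences, 7 were negative for IKKβ triple KO and 5 for RIPK3 triple KO against TRAF2/Casp-8 KO. The count was 0 with each array left out and under every other setting run for that comparison. In IKKβ triple KO against RIPK3 triple KO, 1 of 9 fell, again Nfkbie, and 0 rose, against 1.38% and 0.627% of all genes. Median differences of the members were −0.22, −0.09 and −0.33 in these comparisons, beside 0.00, 0.00 and −0.01 for all genes. These comparisons share arrays with one another.

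The groups did not overlap for 2 of 9 members between IKKβ triple KO and TRAF2/Casp-8 KO, Nfkbie and Tnip1, against 7.48% of all genes, and for 0 of 9 between RIPK3 triple KO and TRAF2/Casp-8 KO, against 6.87%. Between IKKβ triple KO and RIPK3 triple KO they did not overlap for 4 of 9, Nfkbie, Nfkbiz, Tnfaip3 and Tnip1, against 9.01%. All 4 were lower in IKKβ triple KO, by −1.75, −0.53, −0.63 and −0.63, and Nfkbie alone passed (adjusted p = 0.155 for Nfkbiz, 0.174 for Tnfaip3 and 0.136 for Tnip1). The 95% intervals of RIPK3 triple KO minus TRAF2/Casp-8 KO were −0.55 to 0.37 for Nfkbie, −0.22 to 0.70 for Tnfaip3, −0.64 to 0.19 for Tnip1 and −0.71 to 0.49 for Nfkbia.

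**Figure D4:**
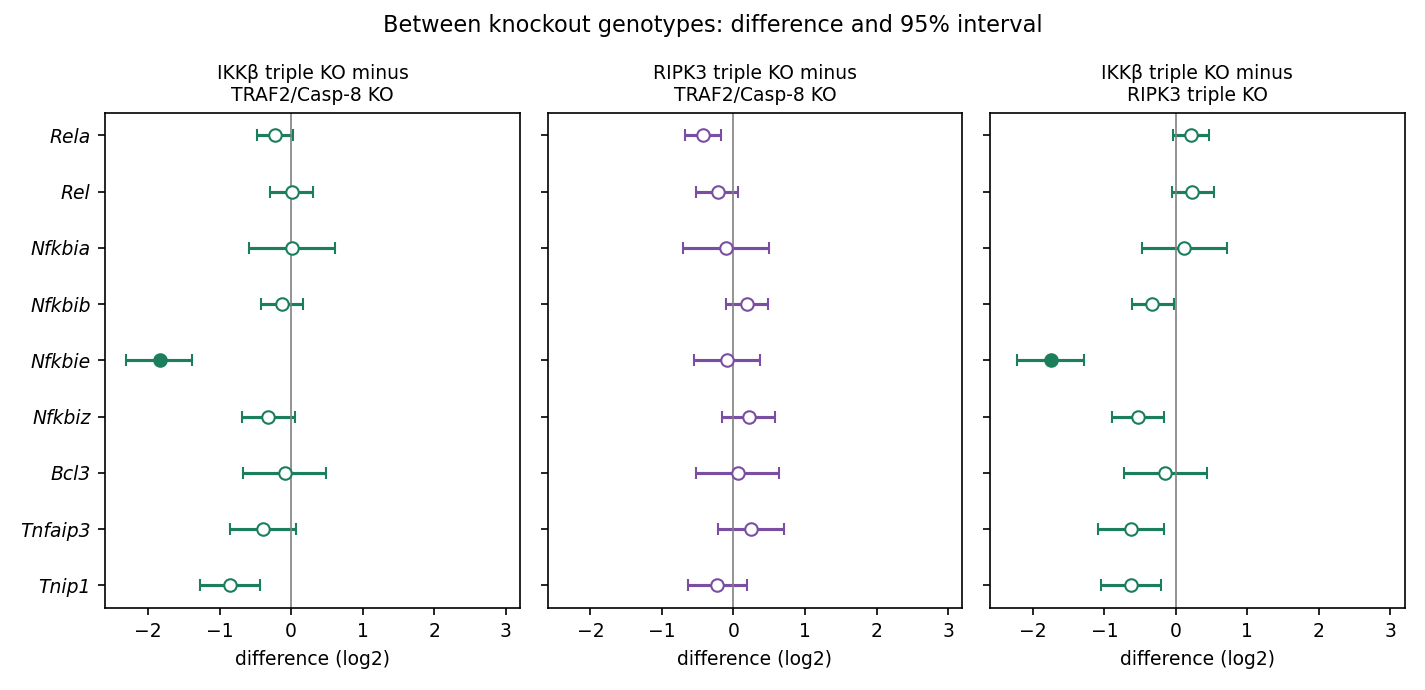
Difference (log2, horizontal axis) of the 9 genes (rows) between knockout genotypes, with 95% intervals from the limma model. Filled points passed an adjusted p of 0.05. Nfkbie is the filled point in both comparisons of IKKβ triple KO, at −1.84 and −1.75, and no point is filled for RIPK3 triple KO minus TRAF2/Casp-8 KO.

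Within arrays, the Nfkbie signal was also set against that of each other member. In IKKβ triple KO against TRAF2/Casp-8 KO, the change of Nfkbie was below that of the other members by −0.99 (Tnip1) to −1.86 (Nfkbia), and in IKKβ triple KO against RIPK3 triple KO by −1.12 (Tnfaip3) to −1.99 (Rel). Nfkbie was singled out after its values were seen, so these differences are a description and no test is given. They were not set in proportion to the rises over WT, which differed between genes. In TRAF2/Casp-8 KO, Nfkbie stood 2.49 above WT and Tnip1 1.15, and IKKβ triple KO differed from TRAF2/Casp-8 KO by −1.84 and −0.85. Tnfaip3 and Nfkbia stood 1.76 and 1.16 above WT, and the differences were −0.39 and 0.01.

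Among the other genes of the NF-κB and IκB family, 2 of 5 rose in RIPK3 triple KO and in TRAF2/Casp-8 KO over WT. They were Nfkb2, the gene of p100, from which p52 of the non-canonical pathway is cut (2.04 ± 0.18, limma adjusted p = 1.35e-05, and 2.05 ± 0.18, adjusted p = 1.8e-05), and its partner Relb (1.83 and 1.71). In IKKβ triple KO, Nfkb2 fell against TRAF2/Casp-8 KO (−1.03 ± 0.18, adjusted p = 0.0126). It also fell there against RIPK3 triple KO (−1.02, adjusted p = 0.0107). Against WT, 0 of the 5 passed in IKKβ triple KO (2 with an unadjusted p below 0.05). Nfkb2 still stood 1.01 ± 0.18 above WT in IKKβ triple KO, with no overlap of livers (adjusted p = 0.0956). The median of the 5 genes was 0.25 in IKKβ triple KO, 0.12 in RIPK3 triple KO and 0.51 in TRAF2/Casp-8 KO over WT.

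Upstream of the members, 29 genes from TNF, interleukin-1 and Toll-like receptors to the IKK complex were measured. Over WT, 3 of 29 rose in RIPK3 triple KO and in TRAF2/Casp-8 KO, and 1 of 29 in IKKβ triple KO, with list medians of 0.01 in IKKβ triple KO, −0.01 in RIPK3 triple KO and 0.10 in TRAF2/Casp-8 KO. Besides Traf2, whose signal goes against the labels, these were the ubiquitin ligase genes Birc2 (1.06 ± 0.12 in RIPK3 triple KO and 1.12 ± 0.12 in TRAF2/Casp-8 KO, limma adjusted p = 0.000168 and 0.000108) and Birc3 (1.76 and 1.69). Against TRAF2/Casp-8 KO, 3 of 29 fell in IKKβ triple KO, the deleted Ikbkb (−0.69), Birc2 (−0.91, adjusted p = 0.00145) and Birc3 (−1.14, adjusted p = 0.0186), and 0 of 29 passed in RIPK3 triple KO (0 with an unadjusted p below 0.05). Of 20 other negative regulators, 1 rose over WT in RIPK3 triple KO (0.49) and in TRAF2/Casp-8 KO (0.70), the deubiquitinase gene Otud7b, which also fell in IKKβ triple KO against TRAF2/Casp-8 KO (−0.43, adjusted p = 0.0447).

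Of 39 canonical target genes, 1 rose over WT in IKKβ triple KO, 7 rose and 1 fell in RIPK3 triple KO, and 8 rose in TRAF2/Casp-8 KO, with medians of 0.18, 0.13 and 0.22. The gene that rose in IKKβ triple KO was Cxcl10, a chemokine that interferons also induce (2.66 ± 0.34, limma adjusted p = 0.00951), which rose by 2.23 in RIPK3 triple KO and by 3.02 in TRAF2/Casp-8 KO as well. The gene that fell in RIPK3 triple KO was Gadd45b (−1.18, adjusted p = 0.0334), named after its value was seen. Against TRAF2/Casp-8 KO, 5 of 39 fell in IKKβ triple KO, among them the chemokine genes Ccl20 (−1.88, adjusted p = 0.000391), Cx3cl1 (−1.05, adjusted p = 0.00211) and Ccl2 (−1.26, adjusted p = 0.00229) and the lymphotoxin gene Ltb (−2.14, adjusted p = 0.000869). In RIPK3 triple KO, 1 of 39 fell against TRAF2/Casp-8 KO, Ccl2 (−1.10, adjusted p = 0.0154). The lists hold Birc3 in both this and the upstream group, and they were written with earlier results of these data known.

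Markers of other liver cells were set beside these values. The mean signal of 7 cholangiocyte markers was 4.64 to 5.24 in IKKβ triple KO, 5.27 to 5.43 in RIPK3 triple KO and 5.50 to 5.63 in TRAF2/Casp-8 KO, against 4.61 to 4.85 in WT. Like Nfkbie, it was higher in all RIPK3 triple KO and TRAF2/Casp-8 KO livers than in all other livers. Unlike Nfkbie, it was lower in all RIPK3 triple KO than in all TRAF2/Casp-8 KO livers. WT replicate 1 had the lowest mean of this list, 4.61, but the highest Nfkbie of the WT livers, 6.12. Over WT, 2 of 7 rose in RIPK3 triple KO and 4 of 7 in TRAF2/Casp-8 KO, among them Sox9 (1.10 and 1.31) and Epcam (0.67 and 0.79), and 3 of 7 fell in IKKβ triple KO against TRAF2/Casp-8 KO. In RIPK3 triple KO, 1 of 7 fell against TRAF2/Casp-8 KO, Cldn7 (−1.0), where Nfkbie differed by −0.09. Their part in the result was not tested. The mean of 8 hepatocyte markers lay at 12.22 to 12.49 in IKKβ triple KO, 12.18 to 12.65 in RIPK3 triple KO, 12.26 to 12.48 in TRAF2/Casp-8 KO and 12.26 to 12.50 in WT, and the defining markers of the labelled tissue were thus bright on every array. The mean of 12 macrophage and Kupffer cell markers was 8.62 to 8.83 in IKKβ triple KO, 8.62 to 9.17 in RIPK3 triple KO and 8.69 to 8.83 in TRAF2/Casp-8 KO. In WT, replicate 1 was at 9.42, and the other WT livers, at 8.44 to 8.49, lay below every knockout liver. With all arrays, 0 of 12 passed limma's test in any comparison (at most 1 with an unadjusted p below 0.05). The macrophage list was not tested without WT replicate 1. The mean of 12 neutrophil and myeloid precursor markers was 7.83 to 8.74 in IKKβ triple KO, 6.35 to 8.07 in RIPK3 triple KO and 7.57 to 8.74 in TRAF2/Casp-8 KO, against 7.89 to 9.49 in WT, and its part in the differences of RIPK3 triple KO was not tested. Of that list, 1 of 12 fell in RIPK3 triple KO against WT, Mmp8 (−1.57, adjusted p = 0.049). All 12 had an unadjusted p below 0.05 in that comparison, with a list median of −1.24. The count was 7 of 12 in RIPK3 triple KO against TRAF2/Casp-8 KO (median −0.98). It was 9 of 12 in IKKβ triple KO against RIPK3 triple KO (median 1.07). Of 10 T and NK cell markers, Gzma fell in RIPK3 triple KO against TRAF2/Casp-8 KO (−0.62, adjusted p = 0.0383) and against WT (−0.70). An unadjusted p below 0.05 was found for 4 of 10 against TRAF2/Casp-8 KO (list median −0.27) and 1 of 10 against WT. In IKKβ triple KO against RIPK3 triple KO it was found for 5 of 10 (median 0.32). Of 10 stellate cell markers, Ngfr fell in IKKβ triple KO against TRAF2/Casp-8 KO (−0.74, adjusted p = 0.0484), with a list median of −0.23. Of 6 erythroid markers 0 passed limma's test in any comparison (at most 3 with an unadjusted p below 0.05), with medians of −0.65 in RIPK3 triple KO against WT and 0.73 in IKKβ triple KO against RIPK3 triple KO. Of 8 B cell and 9 endothelial markers 0 passed in any comparison (at most 1 with an unadjusted p below 0.05). The part of these markers in the results was not tested. In WT replicate 1, 6 of 9 members were above the other WT livers, namely Nfkbia, Nfkbie, Nfkbiz, Bcl3, Tnfaip3 and Tnip1, while Rela, Rel and Nfkbib were within their range.

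For each member that passed in some comparison, the genes with the most similar profile were sought by the root-mean-square difference over the 16 arrays after centring each gene on its own mean. Nfkbie lay closest to Arc (0.29 log2 units), Baat (0.32) and Nfkb2 (0.35), beside an SD of Nfkbie over the arrays of 1.16. Arc, an immediate early gene best known from neurons, averaged 4.48 in IKKβ triple KO, 5.70 in RIPK3 triple KO and 5.97 in TRAF2/Casp-8 KO, against 3.75 in WT. Baat, which conjugates bile acids, averaged 7.11, 9.0, 8.53 and 6.22 in the same order. Tnfaip3 was closest to Nfkb2 (0.31), Mvp (0.37) and Cd74 (0.38). Nfkbia was closest to Cish, a cytokine-induced SOCS family gene (0.27), Tbc1d24 (0.32) and Maff (0.35), and Cish averaged 7.38 in IKKβ triple KO, 7.47 in RIPK3 triple KO and 7.52 in TRAF2/Casp-8 KO, against 6.74 in WT. The closest genes to Tnip1 were Rras, Cblc and Eif2ak3 (0.21 each), those to Nfkbib were Tapbp (0.15), C2 (0.15) and Parp16 (0.16), and those to Nfkbiz were BC065397 (0.13), Sirpa (0.17) and C2 (0.18). The SD over the arrays was 0.85 for Tnfaip3, 0.64 for Nfkbia, 0.55 for Tnip1, 0.30 for Nfkbib and 0.40 for Nfkbiz. The measure is not scaled, so members that vary little have small values and the values do not compare between members.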

How the data were processed

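The authors deposited log2 signals of 35556 probe sets on 16 arrays, made with RMA per the submitters' processing notes. The software that ran RMA is not given in the sources used here. That the scale is log2 rather than linear was taken from the range of values, 0.89 to 13.65. Genes were named from the platform annotation: 21218 probe sets carry 1 symbol, 1881 several and 12457 none, and the probe set with the highest mean stood for its gene. No further normalisation or filter was applied. The 4 genotypes were fitted in 1 model over all arrays with limma 3.58.1 in R 4.3.3 (lmFit, eBayes without trend, two-sided), with Benjamini-Hochberg adjustment over all probe sets at 0.05, and checked on simulated data. The simulated noise was independent between probe sets and held no outlying array or plate effect, so the check does not cover these. All 16 value columns were used. Intervals are 95% intervals of that model.

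The members and gene lists were chosen with earlier results of these data known. From the gene lists outside the members, up to 4 called genes per comparison were named, those of smallest adjusted p. The labels give each array as 1 animal. Replicate numbers are shared between genotypes, but deviations of same-numbered arrays correlated at −0.1 to 0.16, so they were not taken as pairs. The fit was repeated with a trend on intensity and robust eBayes, on the 2 compared genotypes alone, leaving out 1 part in 3 of the probe sets, those of lowest mean, after quantile normalisation or median centring, with a single probe set for each gene, with weights per array, with replicate number as a block, with plate row as a random block, and without each array in turn. Promoter sequences are from RefSeq (GRCm38.p6). Promoters were searched in Python 3.11.15 and plots made with matplotlib 3.10.9.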

Additional observations from a re-analysis of the deposited data

Results flagged for a closer look

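In WT livers, replicate 1 stood far from the other 3 for 2 members. Nfkbia read 8.82 in WT replicate 1, against 8.06 to 8.16 in the other WT livers, and Nfkbiz read 6.73, against 5.95 to 5.99. In both, the gap to the next liver as a share of the whole range of the group (0.868 and 0.945) was above the critical value of Dixon's test. Over 36 groups of 4 livers tested, chance gives about 1.8 such results, and both fell on the same liver.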

How the results depend on the processing

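Nfkbie and Tnfaip3 over WT in RIPK3 triple KO and TRAF2/Casp-8 KO, Tnip1 over WT in TRAF2/Casp-8 KO, and Nfkbie in both comparisons of IKKβ triple KO with another knockout passed limma's test under all 9 alternatives and with each array left out. None of these alternatives took the plate column into account. For Nfkbie in IKKβ triple KO against TRAF2/Casp-8 KO the adjusted p without an array was at most 0.00426. The count of members that passed between IKKβ triple KO and TRAF2/Casp-8 KO was 2 without the dimmest of 3 parts of the probe sets, with 1 probe set per gene and with array weights, since Tnip1 joined, and 1 to 2 with an array left out. Between IKKβ triple KO and WT it was 1, Tnfaip3, with an intensity trend, without the dimmest part, with 1 probe set per gene and with array weights, and 0 to 1 with an array left out. Between RIPK3 triple KO and WT it was 2 with only those genotypes fitted and 2 to 6 with an array left out. Between TRAF2/Casp-8 KO and WT it was 4 to 6 under the alternatives and 3 to 5 with an array left out. With the replicate block, the counts were 0, 4 and 4 against WT for IKKβ triple KO, RIPK3 triple KO and TRAF2/Casp-8 KO, and 1 between IKKβ triple KO and TRAF2/Casp-8 KO, and Nfkbib in RIPK3 triple KO no longer passed.

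Small differences that passed in no setting changed sign. With array weights these were Bcl3 (−0.01) between RIPK3 triple KO and TRAF2/Casp-8 KO, Rel (−0.07) and Nfkbia (−0.16) between IKKβ triple KO and TRAF2/Casp-8 KO, and Nfkbia (−0.07) between IKKβ triple KO and RIPK3 triple KO. With an array left out, Nfkbia ran from −0.28 to 0.04 and Bcl3 from −0.08 to 0.19 between RIPK3 triple KO and TRAF2/Casp-8 KO. Between IKKβ triple KO and TRAF2/Casp-8 KO, Rel ran from −0.13 to 0.10, Nfkbia from −0.17 to 0.26 and Bcl3 from −0.27 to 0.08. Nfkbia ran from −0.06 to 0.37 and Bcl3 from −0.33 to 0.02 between IKKβ triple KO and RIPK3 triple KO, and Rel from −0.01 to 0.10 between RIPK3 triple KO and WT. The cause was not tested. Of 486 member differences under the alternatives, 464 kept direction and side of the threshold, 13 newly passed, 5 no longer passed and 4 changed sign. Of 432 with an array left out, 385 kept both, 4 newly passed, 21 no longer passed and 22 changed sign. Over all probe sets, the alternatives gave 1 to 28 calls for IKKβ triple KO against WT (7 in the model reported), 328 to 1133 for RIPK3 triple KO against WT (845), 458 to 1594 for TRAF2/Casp-8 KO against WT (800), 109 to 509 for IKKβ triple KO against TRAF2/Casp-8 KO (223), 40 to 138 for RIPK3 triple KO against TRAF2/Casp-8 KO (94) and 232 to 875 for IKKβ triple KO against RIPK3 triple KO (567). Averaging the probe sets of a gene gave no other value, since each member has 1.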
